A study of Mus musculus with 69 samples.

Results

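Surfactant is the film of lipid and protein that lowers the surface tension of the alveoli, and it is made, stored in lamellar bodies, secreted and taken back by the alveolar type 2 cells of the lung epithelium. Its hydrophobic proteins, B and C, spread the lipid film, while proteins A and D are collectins that bind microbes and particles and help to clear them. The same cells also divide after injury and give rise to type 1 cells, so their genes are read both as a measure of surfactant production and as a mark of the cells themselves.

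The genes described here were Sftpa1, Sftpb, Sftpc and Sftpd, which encode the 4 surfactant proteins, the lamellar body, lipid and transport genes Abca3, Lamp3, Lpcat1 and Slc34a2, the aspartic protease Napsa and the transcription factor Etv5. Members were the array probes whose transcript accession mapped to one of these 10 symbols in the RefSeq gene table. There were 16 such probes for 9 genes, out of 18656 genes tested. Lpcat1, which makes the main lipid of surfactant, had no matched probe and is not analysed here.

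The study asked how the lungs of mice responded over time to 2 titanium dioxide nanomaterials (nano-TiO2), named NRCWE-025 and NRCWE-030. Female C57BL/6 mice, 5 to 7 weeks old on arrival and acclimatised for 1 to 3 weeks, received 18, 54 or 162 µg of a material in a single intratracheal instillation, or the vehicle alone, which was water with 2% serum. Lung was taken after 1 day or after 28 days, and the RNA of each mouse was hybridised in the Cy5 channel of its own Agilent array against a universal mouse reference RNA in Cy3. The 69 arrays formed 14 groups of 5 mice, except that NRCWE-025 at 162 µg on day 28 had 4, and both materials were compared with the same vehicle mice of that day. The RNA came from a small piece of whole lung, so fewer type 2 cells and less RNA per cell cannot be told apart in any value below.

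Levels are given as the log2 ratio of lung over reference, so that 1 unit is a doubling, and the ratios of different genes are not set against each other because each depends on its own probe and on the reference. Between 49.1 and 72.8% of spots were well above background in the lung channel of an array (median 62.1%), and no spot was saturated. All 16 probes of the surfactant and alveolar type 2 genes were well above background in the lung channel on 69 of 69 arrays, as were all 11 measured type 1 cell markers. Some genes of other lists used below were not. Spry4 was well above background on 0 arrays, Lep on 6, Pax5 on 9, Pln on 23 and Cldn4 on 32, which limits the medians of their lists. The arrays lay on 19 slides, numbered here by first appearance in the order of deposit, and 1 slide held arrays of both days. The 3 arrays furthest from the mean of their own groups over all genes were NRCWE-030 at 18 µg on day 1 replicate 3, NRCWE-025 at 54 µg on day 28 replicate 5 and NRCWE-030 at 18 µg on day 28 replicate 5. Several values below are given both with and without 1 of these arrays.

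The promoters of 2 surfactant protein genes are shown because CTCAAG was found in them and in none of the other members' promoters looked at. The letters CTCAAG, a core sequence of sites for the lung transcription factor Nkx2-1, are printed in capitals. Each covers 250 bases before to 50 bases after the start of the gene on the plus strand of GRCm38.p6, from RefSeq, at chr14:41131538-41131837 for Sftpa1 and chr6:72304360-72304659 for Sftpb.
Sftpa1: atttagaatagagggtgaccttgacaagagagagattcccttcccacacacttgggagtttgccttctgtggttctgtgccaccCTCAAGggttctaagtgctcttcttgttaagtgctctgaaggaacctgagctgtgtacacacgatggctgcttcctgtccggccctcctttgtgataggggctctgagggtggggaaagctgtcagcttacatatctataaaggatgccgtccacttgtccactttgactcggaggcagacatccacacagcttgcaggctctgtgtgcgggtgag
Sftpb: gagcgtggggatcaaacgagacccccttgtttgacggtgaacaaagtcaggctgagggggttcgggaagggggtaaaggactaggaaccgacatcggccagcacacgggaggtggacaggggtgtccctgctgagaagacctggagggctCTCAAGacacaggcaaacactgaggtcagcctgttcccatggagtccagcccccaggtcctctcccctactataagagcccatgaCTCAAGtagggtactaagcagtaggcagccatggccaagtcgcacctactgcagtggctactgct
Promoters of 7 of the genes were in the table used, and those of Sftpc, Sftpd and Napsa were not looked at. On either strand, CTCAAG was found in 2 of the 7 genes, Sftpa1 with 1 match and Sftpb with 2, against 15.7% of 32544 promoters of the same length. The shorter CAAG, which CTCAAG contains, was in 5 of 7 genes and in 90.6% of all promoters. The forkhead letters TGTTTAC stood in Etv5 and Lamp3 (3.66% of all promoters) and TGTTTGC in Sftpb (5.08%), while TATAAA stood in Sftpa1 alone (13.6%). GGAA, the core of ETS sites such as those of Etv5, was in 7 of 7 genes and in 96.0% of all promoters, and the longer CCGGAAG was in 0 of 7 (8.91%). A match is a description of letters and not a binding site.

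After instillation of either nano-TiO2, none of the surfactant and alveolar type 2 genes passed the test against vehicle, on day 1 or on day 28. The differences with an unadjusted p under 0.05 were those of Abca3 in 3 groups of day 1, at -0.29 to -0.43 on the log2 scale, and of Sftpb in 1 group of day 1, at -0.43. Each gene was tested with limma within each material and day, as an effect of dose over vehicle, 18, 54 and 162 µg and as each dose against vehicle, with p adjusted over 18656 genes. Of the 9 genes, 0 passed an adjusted p of 0.05 in any of the 27 comparisons of dose, material and day, and those 4 of their 108 differences from vehicle had an unadjusted p under 0.05. The dose test called 0.0214% of all genes for NRCWE-025 on day 1, 0.0268% for NRCWE-025 on day 28, 0.954% for NRCWE-030 on day 1 and 0.102% for NRCWE-030 on day 28. At 162 µg against vehicle these shares were 0.209%, 0.0161%, 1.69% and 0.0965% in that order, so 0 of 9 is near the background in each. At 18 µg they were 0%, 0.059%, 0.00536% and 0.118%, and at 54 µg 0%, 0.0268%, 0.0804% and 0.0536%. Unadjusted, the share of all genes with p under 0.05 was 5.12%, 8.89%, 7.3% and 9.03% at 18 µg, 6.53%, 7.07%, 8.76% and 6.52% at 54 µg, and 12.3%, 7.24%, 12.9% and 7.51% at 162 µg. Of the 108 differences, 65 were below 0 and 43 above, the largest was -0.67, and 102 had a 95% interval lying within -1 and 1.

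**Figure D1:**
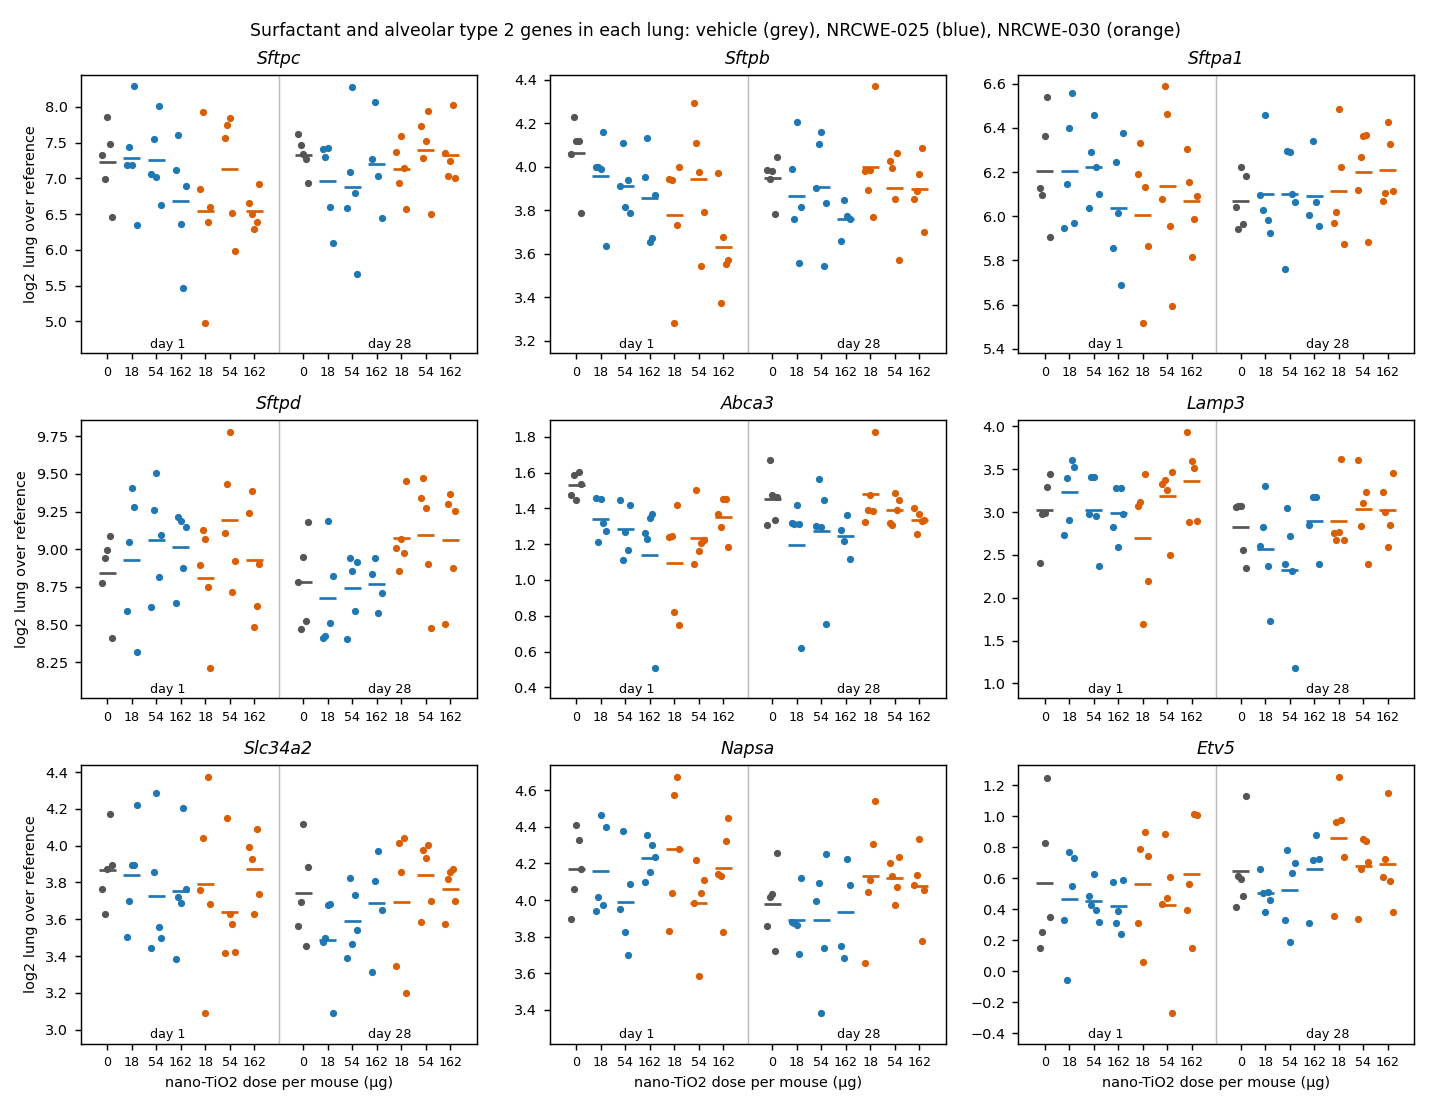
Log2 ratio of lung over reference (vertical axis) of the 9 measured surfactant and alveolar type 2 genes in the 14 groups of mice (horizontal axis, by day, material and dose), with a point per mouse and a bar for the group mean. The groups of each gene overlap widely, except that the day 1 vehicle mice sit near the top of the day 1 Abca3 values, between 1.45 and 1.60.

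The order of the 14 group means was examined for each gene. The means spread over 0.21 for Sftpa1, the narrowest, to 1.04 for Lamp3, 2 of whose 3 probes give only a bound. On the third Lamp3 probe, A_52_P142807, they ran from 5.73 to 6.06. For each of the 9 genes the largest gap between neighbouring group means was smaller than the pooled standard deviation (SD) within groups. Sorting 14 means makes such gaps small, so this cannot show whether a group at either end stands apart. The lowest and highest means lay 0.43 apart for both Abca3 and Sftpb, with pooled SDs of 0.20 and 0.21, and 0.21 apart for Sftpa1, with 0.24. These ends were picked by sorting, and their distance was not tested. The vehicle group of day 1 was the highest for Abca3 and Sftpb, and NRCWE-030 at 162 µg on day 1 was the lowest for Sftpb and Sftpc.

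Sftpb encodes surfactant protein B, which is needed for the lipid film to spread. In the day 1 vehicle mice its log2 ratio was 4.06, 4.23, 4.12, 4.12 and 3.79. In the day 1 mice given 162 µg of NRCWE-030 it was 3.97, 3.37, 3.68, 3.55 and 3.57. These were lower on average, but 1 treated mouse lay inside the vehicle range. The mean was 4.06 ± 0.16 (SD, n = 5) in vehicle mice and 3.63 ± 0.22 (SD, n = 5) at 162 µg, a difference of -0.43 (95% interval -0.74 to -0.12), or 0.741 times the vehicle level. Its adjusted limma p was 0.169, against an unadjusted p of 0.00899. All 6 treated groups of day 1 had means below the vehicle mean. Of the 30 treated mice, 11 lay below every vehicle mouse and 1 lay above every one. Such counts, here and below, set all treated mice of a day against the same 5 vehicle mice. Their share over all genes was not computed. The 5 vehicle and 5 treated arrays shared slides 7 and 16, and within them the difference was -0.15 and -0.11. With slide as a fixed block the difference was -0.22 (adjusted p = 0.56), and with the log ratios scaled to a common spread between arrays it was -0.08.

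By day 28 the Sftpb ratio of the vehicle mice was 3.98, 3.94, 3.98, 3.78 and 4.04. The mice given 162 µg of NRCWE-030 had 3.85, 3.89, 3.97, 4.08 and 3.70, which spanned the vehicle range. The difference was -0.05 (-0.27 to 0.18). NRCWE-025 at 162 µg gave -0.21 (-0.43 to 0.02) on day 1 and -0.19 (-0.44 to 0.07) on day 28, and its difference between days was not called, where 0.059% of all genes were. Under that scaling the day 1 value of NRCWE-025 turned to 0.28. The change of the NRCWE-030 difference between days, -0.38 (-0.75 to -0.02), had an adjusted p of 0.602, in a comparison that called 0.198% of all genes (7.67% unadjusted).

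Sftpc encodes surfactant protein C, which type 2 cells alone make in the adult lung, and its probe was the brightest of the 16, with a median lung signal of 385559. Its ratio in the day 1 vehicle mice was 7.32, 7.00, 7.86, 7.48 and 6.46. At 162 µg of NRCWE-030 on day 1 it was 6.65, 6.50, 6.30, 6.38 and 6.92, and at 162 µg of NRCWE-025 it was 7.12, 7.60, 6.36, 5.47 and 6.89. Both treated groups were lower on average and both overlapped the vehicle mice. The differences were -0.67 (-1.56 to 0.21, adjusted p = 0.572) for NRCWE-030, or 0.627 times the vehicle level, and -0.53 (-1.32 to 0.25, adjusted p = 0.601) for NRCWE-025, the latter being -0.23 without replicate 4, whose ratio was 5.47. Their intervals are the widest of the 9 genes and hold both no change and a fall of more than 1 unit.

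The Sftpc values also moved with the slide. The SD within groups was 0.65, which 99.2% of all genes were under, and it was 0.31 once slides were taken out as well, while the median gene had an SD of 0.173 within groups. Slide means ran from 5.93 on slide 16 to 8.08 on slide 12. The day 1 vehicle mouse on slide 16 was the lowest of its group, at 6.46. With slide as a fixed block the NRCWE-030 difference was -0.35 and the NRCWE-025 difference -0.41. Scaling the log ratios to a common spread between arrays turned them to 0.01 and 0.30, so no direction is given for Sftpc at 162 µg. At 18 µg of NRCWE-030 on day 1 the difference was -0.67, and -0.28 without the array of replicate 3, whose Sftpc ratio of 4.97 was the lowest of the 69. At day 28 the vehicle mice had 7.62, 7.46, 7.35, 7.27 and 6.93, and the 6 differences lay between -0.44 and 0.07. The lowest, at 54 µg of NRCWE-025, was -0.14 without replicate 5, 1 of the 3 arrays named above.

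**Figure D2:**
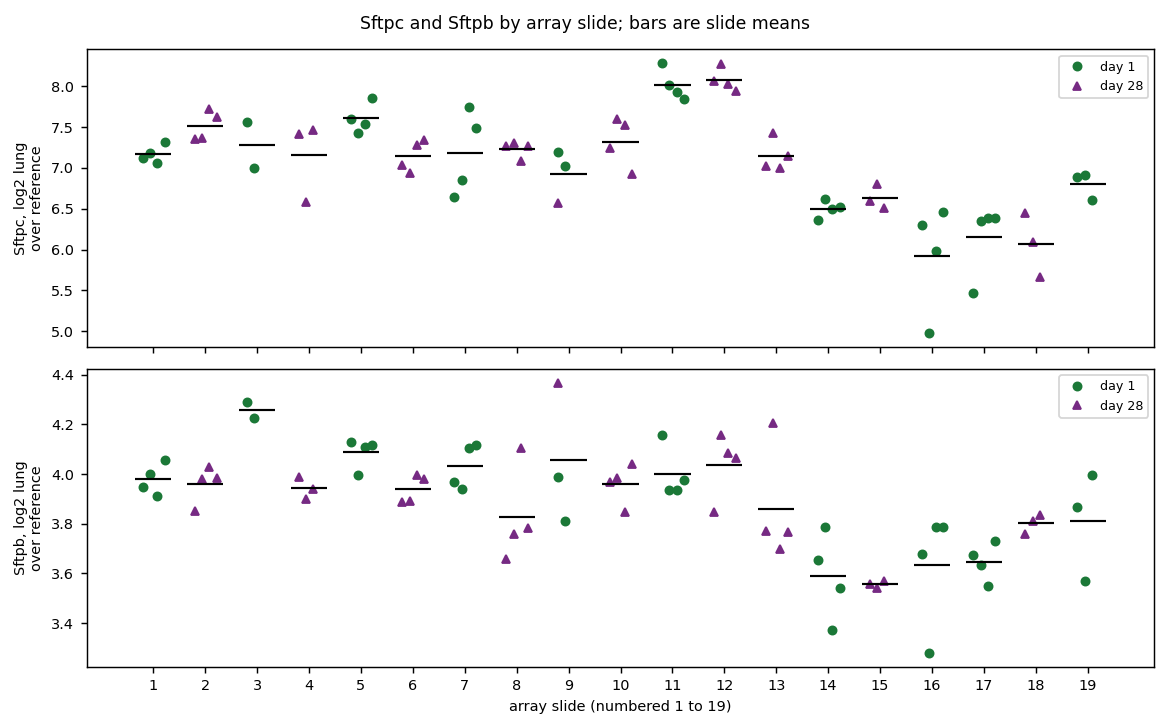
Sftpc and Sftpb log2 ratios of lung over reference (vertical axes) by slide in order of deposit (horizontal axis), with a point per mouse marked by day and a bar for the slide mean. The slide means of Sftpc run from 5.93 on slide 16 to 8.08 on slide 12, and those of Sftpb from 3.56 on slide 15 to 4.26 on slide 3.

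Sftpa1 and Sftpd encode the collectins of surfactant. Sftpa1 had the tightest group means of the 9 genes. In the day 1 vehicle mice its ratio was 6.13, 6.10, 6.36, 6.54 and 5.90, and at 162 µg of NRCWE-030 it was 6.31, 6.16, 5.81, 5.99 and 6.09. The treated mice lay within or just below the vehicle range, with a difference of -0.14 (-0.51 to 0.24). At 162 µg of NRCWE-025 on day 1 the difference was -0.17 (-0.47 to 0.13). Scaling between arrays turned these to 0.48 and 0.60, so neither is given a direction. At day 28 the differences at this dose were 0.02 (-0.23 to 0.27) for NRCWE-025 and 0.14 (-0.10 to 0.38) for NRCWE-030.

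The Sftpd ratio in the day 1 vehicle mice was 8.78, 8.94, 8.99, 9.09 and 8.41. At 162 µg of NRCWE-030 it was 9.24, 9.39, 8.49, 8.62 and 8.90, and at 54 µg it was 9.11, 9.43, 9.78, 8.71 and 8.92. The treated mice reached above the vehicle mice and also lay among them. Across the 6 treated groups of day 1, 14 of 30 mice were above every vehicle mouse and 2 were below, all set against the same 5 vehicle mice. The difference at 162 µg of NRCWE-030 was 0.08 (-0.36 to 0.53, adjusted p = 0.942), and at 54 µg, the highest, it was 0.35 (-0.10 to 0.80, adjusted p = 0.722). Read from the lung channel alone, the same 162 µg difference was 0.79, with an adjusted p of 0.0387. That setting called 357 genes in all, and its normalisation used both channels, so the reference still enters it. Scaled between arrays the difference was 0.98, with an adjusted p of 0.381. On day 28 the 3 doses of NRCWE-030 gave 0.29 (0.20 without replicate 5), 0.31 and 0.28, and those of NRCWE-025 gave -0.11, -0.04 and -0.01. The difference between the materials on that day, tested over the 3 doses together, had an unadjusted p of 0.048 and an adjusted p of 0.791, where 0.241% of all genes were called (6.29% unadjusted).

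Abca3 encodes the transporter that carries phospholipid into the lamellar bodies. Of the 108 pairs of a treated group and its vehicle group, 3 did not overlap, and these were all Abca3 on day 1, where the share of all genes that did not overlap was 0.724%, 1.15% and 2.09% at 18, 54 and 162 µg of NRCWE-025 and 0.997%, 1.99% and 4.55% at those doses of NRCWE-030. On day 28, with 0 such pairs among the 9 genes, it was 2.38%, 1.21% and 2.29%, and 1.85%, 1.59% and 2.11%. The vehicle ratios were 1.47, 1.59, 1.45, 1.60 and 1.53, the mean being 1.53 ± 0.07 (SD, n = 5). At 162 µg of NRCWE-025 the ratios were 1.26, 1.23, 1.35, 1.37 and 0.51, and at 18 µg of NRCWE-030 they were 1.24, 1.25, 0.82, 1.42 and 0.75. Every mouse of these groups lay below every vehicle mouse, as did every mouse given 54 µg of NRCWE-025, whose ratios were 1.45, 1.11, 1.27, 1.17 and 1.42. In all, 25 of 30 treated mice of day 1 were below every vehicle mouse, and all 6 group means were lower. This count sets all 30 against the same 5 vehicle mice, and its share over all genes was not computed.

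None of the Abca3 differences on day 1 passed the adjusted threshold. For NRCWE-025 they were -0.19, -0.25 and -0.39 from the lowest to the highest dose, the last with an interval of -0.65 to -0.13 and an adjusted p of 0.184. Without replicate 5, whose ratio was 0.51, the last was -0.23. For NRCWE-030 they were -0.43 (-0.67 to -0.20, adjusted p = 0.327), -0.29 (-0.53 to -0.06, adjusted p = 0.408) and -0.18 (-0.41 to 0.06, adjusted p = 0.572). The dose test gave unadjusted p of 0.0414 and 0.00752, beside 9.98% and 11.2% of all genes under 0.05, and adjusted p of 0.481 and 0.188. The shared vehicle mice enter all 6 differences, so these are not 6 separate observations. With slide as a fixed block the 162 µg difference of NRCWE-025 was -0.20 (adjusted p = 0.545) and the 18 µg difference of NRCWE-030 was -0.50. Without replicate 3 of that 18 µg group the latter was -0.36 in the unblocked fit. At day 28 the vehicle ratios were 1.31, 1.67, 1.48, 1.34 and 1.46, and 9 of 29 treated mice lay below all of them.

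The gene value, the median of the 3 Abca3 probes, came from different probes in different mice. These probes did not follow each other. After group means were removed, their pairwise correlations over 69 arrays were -0.07, 0.32 and -0.35. The reference channel was well above background on 69 arrays for probe A_52_P91265, on 65 for A_51_P443082 and on 36 for A_51_P427317. On the first of these, the only one measured in both channels throughout, the day 1 vehicle mean was 1.70 ± 0.09 (SD, n = 5), against 1.46, 1.33 and 1.59 at the 3 rising doses of NRCWE-025 and 1.46, 1.43 and 1.42 at those of NRCWE-030. On this probe the groups that stood apart were not all the same as for the gene. Of the 5 mice at 162 µg of NRCWE-025, 4 lay inside the vehicle range, as did 2 of 5 at 18 µg of NRCWE-030, while 0 of 5 did so at 54 µg of the former material or 162 µg of the latter. Its difference of -0.37 (-0.54 to -0.20) at 54 µg of NRCWE-025 had an unadjusted p of 0.00017 and an adjusted p of 0.357. None of the 16 probes passed in any comparison, with 0 calls at the adjusted threshold.

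**Figure D3:**
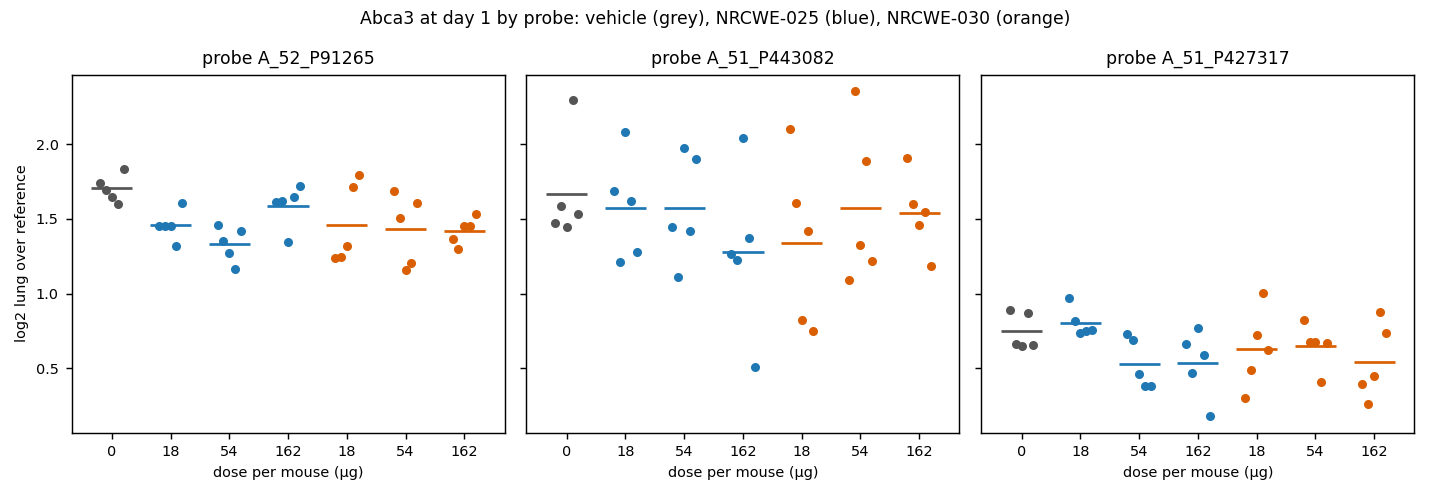
Log2 ratios of lung over reference (vertical axis) of the 3 Abca3 probes on day 1 by group (horizontal axis), with a point per mouse and a bar for the mean. On probe A_52_P91265 the vehicle mice lie between 1.60 and 1.84, above the treated means of 1.33 to 1.59, but 4 of 5 mice at 162 µg of NRCWE-025 lie inside that range, while the other probes scatter more widely.

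Lamp3 encodes a membrane glycoprotein of lamellar bodies. Its ratio was 2.40, 2.98, 2.99, 3.29 and 3.44 in the day 1 vehicle mice and 3.94, 2.89, 3.60, 3.52 and 2.89 at 162 µg of NRCWE-030. The groups overlapped, and the difference was 0.35 (-0.28 to 0.97, adjusted p = 0.725). On 2 of its 3 probes the reference was well above background on 0 of 69 arrays, so the ratio there is only a lower bound of the level. On the third, A_52_P142807, whose reference signal was well above background on 69 arrays, the 162 µg differences were 0.15 (-0.14 to 0.45) and -0.04 (-0.27 to 0.18) on day 1, NRCWE-025 first, and -0.02 (-0.31 to 0.26) and 0.09 (-0.21 to 0.38) on day 28. The lowest group mean, 2.33 at 54 µg of NRCWE-025 on day 28, includes the 1.18 of replicate 5, 1 of the 3 arrays furthest from their groups, and its difference from vehicle was -0.49 with that array and -0.20 without it. Between materials at that dose and day the difference was 0.71 (unadjusted p = 0.0168, adjusted p = 0.517) and 0.42 (unadjusted p = 0.128) without the arrays furthest from their groups. With all arrays, 0.0804% of all genes were called in this comparison and 7.86% passed unadjusted. On probe A_52_P142807 the day 28 means at 54 µg were 5.93 ± 0.18 (SD, n = 5) for NRCWE-025 and 6.00 ± 0.15 for NRCWE-030. The day 28 vehicle mean on this probe was 5.86 ± 0.20, below both. On day 1 the test between materials called 0 of the 9 genes, against 0.155% of all genes.

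Slc34a2 encodes the phosphate transporter of the apical membrane of type 2 cells. In the day 1 vehicle mice its ratio was 3.76, 3.63, 3.87, 4.17 and 3.90, and at 162 µg of NRCWE-030 it was 3.99, 3.93, 3.63, 4.09 and 3.74. The latter all lay inside the vehicle range. The 162 µg differences over both materials and days were -0.11 to 0.02, and the lowest of the 12 was -0.26 (-0.56 to 0.04) at 18 µg of NRCWE-025 on day 28.

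Napsa encodes napsin A, a protease that trims the precursor of surfactant protein B. Its ratio was 3.90, 4.06, 4.41, 4.33 and 4.17 in the day 1 vehicle mice and 4.14, 4.13, 3.82, 4.32 and 4.45 at 162 µg of NRCWE-030. The means were equal to the second decimal, with a difference of 0.00 (-0.33 to 0.33). Over all 12 treated groups the Napsa differences ran from -0.19 to 0.15.

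Etv5, an ETS transcription factor needed to keep the type 2 identity, had a ratio of 0.15, 0.26, 0.83, 1.25 and 0.35 in the day 1 vehicle mice. That vehicle range is wider than the shift of any Etv5 group mean. At 162 µg the differences were -0.14 (-0.51 to 0.22) and 0.06 (-0.44 to 0.56) on day 1 and 0.01 (-0.29 to 0.32) and 0.04 (-0.30 to 0.38) on day 28, NRCWE-025 being given first. The highest Etv5 mean was 0.86, at 18 µg of NRCWE-030 on day 28.

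**Figure D4:**
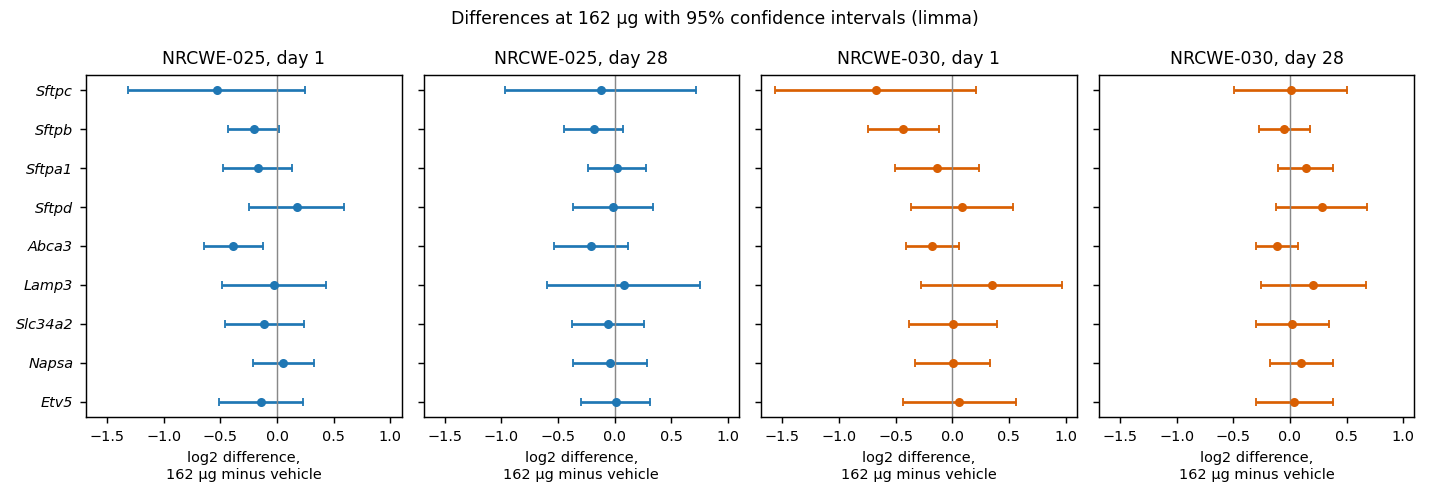
Log2 difference of 162 µg from vehicle (horizontal axis) for the 9 surfactant and alveolar type 2 genes (vertical axis), by material and day, with 95% limma intervals as bars. Most intervals cross 0, and those that do not, Abca3 for NRCWE-025 and Sftpb for NRCWE-030, both on day 1, end at -0.13 and -0.12.

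The vehicle mice of day 28 were compared with those of day 1. The 9 differences lay between -0.20 and 0.10, and the smallest unadjusted p was 0.2, for Napsa (adjusted p = 0.754), where 0.0375% of all genes were called. Day and slide are nearly confounded: 1 slide held both days, and 1 of its arrays was from day 28. That array was NRCWE-030 at 18 µg on day 28 replicate 5, 1 of the 3 arrays furthest from their groups. It also had the lowest correlation with the deposited series table, 0.922. With slide as a fixed block, which makes this comparison rest on that array, Sftpa1 fell by 0.71 (adjusted p = 0.0359) and Slc34a2 by 1.15 (adjusted p = 0.0121) among 1375 genes called. With slide as a random block 0 of the 9 genes were called.

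The ratios of several of these genes were correlated from mouse to mouse. With group means removed, Pearson correlations over the 69 arrays were computed for all 36 pairs, with p from 100000 permutations of mice within groups, adjusted over the 36. The permutations did not keep mice within slides, so the p-values do not allow for the slide. Of the pairs, 29 were positive and 15 had an adjusted p under 0.05, 14 of them positive. Within slides 13 of these 14 were between 0.33 and 0.65, and the other, Sftpb and Sftpd, was -0.04 (0.34 pooled, permutation adjusted p = 0.0338). On the lung channel alone 5 of the 14 were below 0. Sftpa1 and Sftpc had r = 0.71 (Spearman's rho 0.68, permutation adjusted p = 0.00012), and r = 0.68 without the 2 arrays of most extreme Sftpa1. Within slides it was 0.63, and on the lung channel alone 0.40. Sftpb and Sftpc had r = 0.62 (rho 0.61, permutation adjusted p = 0.00012) and 0.56 without the 2 extreme arrays, with 0.42 within slides but -0.07 on the lung channel alone. The lung channel values were taken after both channels were normalised together, so the reference, which all ratios of an array share, still enters them.

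Outside the surfactant proteins, Slc34a2 and Etv5 gave r = 0.57 (rho 0.59, permutation adjusted p = 0.00027), which was 0.52 without the 2 arrays of most extreme Slc34a2, 0.40 within slides and 0.76 on the lung channel alone. Sftpa1 and Sftpb, whose promoters are shown above, gave 0.48 (rho 0.46, permutation adjusted p = 0.00296), with 0.47 without the 2 extreme arrays and 0.35 within slides, but -0.00 on the lung channel alone. Sftpa1 and Slc34a2 gave 0.54 (rho 0.56, permutation adjusted p = 0.00036), with 0.51 both without the 2 extreme arrays and within slides. The single negative pair past the threshold was Sftpc and Napsa, at r = -0.46 (rho -0.40, permutation adjusted p = 0.00296) pooled and -0.38 without the 2 arrays of most extreme Sftpc, but -0.11 within slides.

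**Figure D5:**
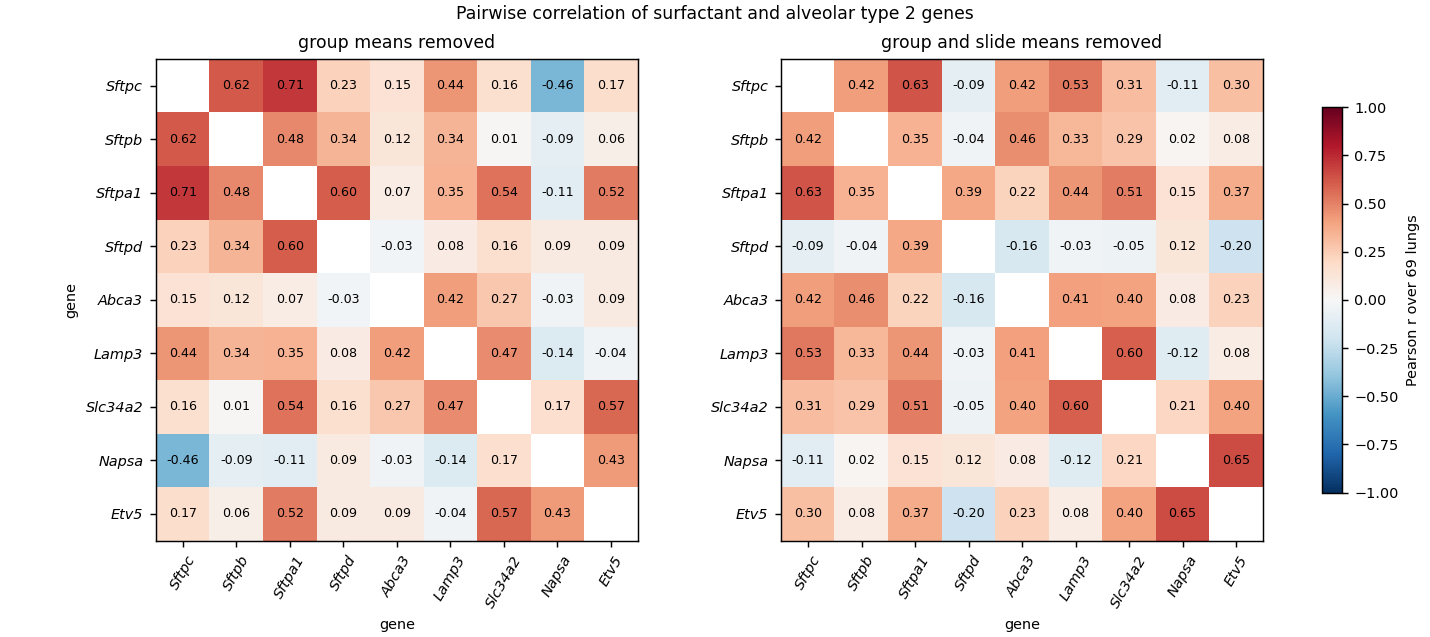
Pearson correlation of the log2 ratios of each pair of the 9 genes over 69 arrays, with group means removed, as a colour scale from negative (blue) to positive (red), and beside it the same with slide means removed too. In the first panel the pair with the highest value is Sftpa1 and Sftpc, at 0.71, and the lowest is Sftpc and Napsa, at -0.46, which becomes -0.11 in the second.

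The genes whose ratios followed each member most closely, of all 18656 tested and over the same 69 arrays with group means left in, are given by Pearson's r alone, as a description of arrays that share slide and reference. For Sftpc they were Hopx (0.86), a type 1 cell gene, Hbb-bt (0.83), a globin, and Cyp2f2 (0.83), a club cell enzyme. Sftpb was nearest to Cyp4b1 (0.79), Ager (0.79), which marks type 1 cells, and Tppp3 (0.70), which marks ciliated cells. For Sftpa1 the nearest were Atp6v1c2 (0.80), Cldn3 (0.78), an epithelial junction protein, and Serping1 (0.78). Sftpd was nearest to Ccl6 (0.74), Chil1 (0.67) and Plac9a (0.62), of which Ccl6 is a chemokine and Chil1 a chitinase-like protein. Abca3 had no gene above 0.58, the nearest being Mme, Ing3 and Maob. Lamp3 was nearest to Psmg3 (0.81), Tmprss4 (0.77) and Spats2l (0.77). For Slc34a2 they were Spon1 (0.73), Trpm6 (0.73) and Col13a1 (0.70), and for Napsa Wdr81 (0.73), Gga2 (0.72) and Gdpd5 (0.72). Etv5 was nearest to Dram1 (0.79), Npc1 (0.76), which moves cholesterol out of lysosomes, and Fam171a1 (0.76). Dram1 and Chil1 belong to the list of other type 2 cell genes used below. Hopx is also in the list of type 2 transcription and signalling genes. Many other genes followed a member more closely than its fellow members did. By r, Sftpc ranked 16 among the genes nearest to Sftpa1, while Sftpa1 ranked 68 and Sftpb 284 among those nearest to Sftpc. Slc34a2 ranked 423 among those nearest to Etv5.

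Other genes of the same cells and pathway were examined as lists. Of 25 measured genes of the surfactant lipid and protein pathway, not all of them for synthesis, the median difference at 162 µg was -0.08 and -0.13 on day 1, NRCWE-025 first. On day 28 it was -0.03 and 0.02, beside medians over all genes of 0.00 in each. Of these 25, the dose test called 2 genes for NRCWE-030 on day 1, Ctsc and P2ry2, against 0.954% of all genes, and both were higher at 162 µg. Ctsc, the lysosomal protease cathepsin C, rose by 0.91 (0.52 to 1.30, adjusted p = 0.0154) at this dose. P2ry2, the ATP receptor that triggers surfactant secretion, rose by 0.58 (0.39 to 0.76, adjusted p = 0.00202). The 16 transcription and signalling genes of type 2 cells had medians of -0.12 and -0.10 on day 1 and 0.01 and 0.01 on day 28. Dusp6, a phosphatase that acts on ERK, was higher at 162 µg of NRCWE-030 on day 1, by 0.79 (0.39 to 1.19, adjusted p = 0.0379). The 18 other type 2 cell genes had medians of -0.07, -0.15, -0.08 and -0.03 in the order of the 2 materials on day 1 and then on day 28. Scaling between arrays turned the day 1 medians of these 18 genes to 0.34 and 0.31, and those of the 25 pathway genes to 0.07 and 0.00, so no direction is given for either list.

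For NRCWE-030 on day 1, 1 gene of a repair list and 2 of a list for clearance by macrophages also passed the dose test. The cells in which these genes rose were not tested. Of 12 genes of transitional alveolar epithelium, which appear as type 2 cells turn into type 1 cells, the dose test called 1, Lcn2, against 0.954% of all genes, and the list medians were 0.01 and -0.04 on day 1 and -0.04 and -0.20 on day 28. Lcn2, which encodes the iron-binding protein lipocalin 2, rose by 2.43 (1.71 to 3.15) at 54 µg and by 3.07 (2.35 to 3.78, adjusted p = 0.000105) at 162 µg. Of 12 genes of surfactant clearance the dose test called 2, against that same share of all genes, and both rose at 162 µg. Csf2rb2, a chain for IL-3 in the GM-CSF receptor family, rose by 1.00 (0.69 to 1.32, adjusted p = 0.00178), and Msr1, a macrophage scavenger receptor, by 0.98 (0.61 to 1.35, adjusted p = 0.00687). The clearance list as a whole had medians of -0.08 and -0.06 on day 1 and 0.10 and 0.35 on day 28. Pparg, which drives the lipid program of alveolar macrophages, had a 162 µg difference of NRCWE-030 that was lower on day 1 than on day 28 by an amount of -0.84 (-1.21 to -0.48, adjusted p = 0.0207).

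Marker lists of other cell types are given beside these genes, and their part in the values above was not tested. The 11 type 1 cell markers had medians of -0.36 and -0.49 at 162 µg on day 1 and -0.21 and -0.20 on day 28, in the same order of materials. Of these markers 9, 9, 11 and 11 of 11 were below vehicle, beside 50.0%, 48.7%, 51.3% and 50.7% of all genes, and 0 were called. The mean log2 ratio of the 11 markers was 3.63 to 3.89 in day 1 vehicle mice. It was 3.09 to 3.74 at 162 µg of NRCWE-025 and 3.16 to 3.51 at 162 µg of NRCWE-030, the last of which did not overlap the vehicle mice. Of single genes 4.55% did not overlap in that contrast, and the share for lists was not computed. Scaled between arrays, the day 1 medians were 0.25 and -0.08. The 5 club cell and 8 ciliated cell markers had day 1 medians of -0.38 and -0.51, and of -0.41 and -0.44, which became 0.36 and 0.07, and 0.02 and -0.08, when scaled between arrays. The 7 macrophage markers had medians of 0.42 and 0.40, and the 8 neutrophil markers 0.06 and 0.16. Of the neutrophil markers, Ngp was well above background on 20 arrays and Camp on 33, which limits these medians. Csf3r, the receptor for G-CSF, was up by 1.25 (0.83 to 1.66, adjusted p = 0.00262) at 162 µg of NRCWE-030 on day 1. The share of all genes called in that contrast was 1.69%. Csf3r is 1 gene of the 8, so no direction is given for the neutrophil list.

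The heart and fat lists varied widely from mouse to mouse. The mean ratio of 8 heart genes ran from 0.68 to 4.52 in the day 1 vehicle mice, from 0.40 to 0.83 at 162 µg of NRCWE-025 and from 0.12 to 3.21 at 162 µg of NRCWE-030. The 7 fat genes ran from 1.62 to 4.46, from 0.52 to 2.46 and from 0.79 to 2.74. The 9 surfactant and alveolar type 2 genes themselves had medians of -0.14 and 0.00 on day 1 and -0.04 and 0.04 on day 28. Scaled between arrays, these were 0.35 and 0.39 on day 1 and -0.01 and -0.14 on day 28. Among the 7 fat genes Cidec was lower at 162 µg of NRCWE-030 on day 1, by an amount of -1.36 (-2.02 to -0.71, adjusted p = 0.0306), and among 4 red blood cell genes Hba-a1 by -0.65 (-0.94 to -0.36, adjusted p = 0.0207), with list medians of -0.66 and -0.41. On day 28 Mmp9, a neutrophil protease, was lower at 162 µg of NRCWE-030, by -1.11 (-1.44 to -0.78, adjusted p = 0.00289), beside neutrophil medians of -0.44 and -0.58 for the 2 materials. The medians of 7 endothelial, 6 B cell and 6 T cell markers at 162 µg lay between -0.25 and 0.29 over both materials and days, with 0 called. Dusp6, Cidec, Hba-a1 and Pparg passed only in single contrasts, and were named after their values were seen.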

How the data were processed

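Lung RNA of 69 mice was measured on 2-colour Agilent arrays without dye swaps. The deposited scanner files hold spot intensity in both channels, flags set by the scanner software and the log10 ratio of Cy5 over Cy3, made with Feature Extraction 11.0.1.1, and their headers name mm9. The deposited series table holds values on a log2 scale whose centring was not stated, and which had a median correlation of 0.996 (lowest 0.922) with loess log2 ratios made without background correction.

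From the spot medians, backgrounds were corrected with normexp (offset 50; local backgrounds that the scanner software marked were replaced by the array's median), ratios were loess-normalised within arrays, marked spots (0.11 to 0.49% per array) were left out, and medians were taken over spots and then over probes. Of 41174 probes, 27479 (66.7%) were named by accession through the RefSeq table of GRCm38.p6, and 18656 genes were tested, with 93 left out for missing values. limma 3.58.1 in R 4.3.3 was fitted to the vehicle and 3 dose groups of a material and day, and to all 14 groups for differences between materials and days. P-values were adjusted by the Benjamini-Hochberg method over all genes tested and called under 0.05. All 10 genes and their probes were to be named, and of each list the up to 4 genes called in a dose test with the smallest p, plus the 3 genes most like each member. Replicates are separate mice, numbered in the order of deposit. The members and lists were chosen with earlier results of these data known. The limma dose test and contrasts were tested on simulated gene values of NRCWE-030 on day 1, with independent noise and no slide effect. Background correction, normalisation, permutations and slide blocks were not tested in this way. The number of arrays limits the precision.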

Additional observations from a re-analysis of the deposited data

Results flagged for a closer look

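In 5 of 126 groups of 4 or 5 mice, counted over the 9 genes and 14 groups, 1 mouse lay further from the rest of its group than Dixon's criterion at 95% allows, and chance alone flags about 1 in 20 groups. Abca3 stood at 0.51 in NRCWE-025 162 µg day 1 replicate 5, against 1.23 in the nearest mouse, and at 0.62 in NRCWE-025 18 µg day 28 replicate 5, against 1.31. These 2 Abca3 values are those of the dimmer probes A_51_P443082 and A_51_P427317, on which the median over the probes fell. On the brighter probe A_52_P91265 the lowest values of these groups were 1.35 and 1.31. Lamp3 stood at 2.50 in NRCWE-030 54 µg day 1 replicate 4, against 3.25, and at 3.62 in NRCWE-030 18 µg day 28 replicate 4, against 2.77. Etv5 stood at 1.13 in the day 28 vehicle replicate 5, against 0.62.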

How the results depend on the processing

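Over the 21 comparisons of dose, material and day, 0 of 9 genes were called as reported, and this count changed in 2 of the comparisons. With the lung channel alone it was 1 at 162 µg of NRCWE-030 on day 1 (Sftpd, 0.79, adjusted p = 0.0387). With slide as a fixed block it was 2 for day 28 against day 1 vehicle mice (Sftpa1 and Slc34a2), a comparison that then rests on 1 array. Without background correction, with marked backgrounds kept, with a filter on dim genes, with the mean over probes, with scaling between arrays, with the series' value table, with the scanner's log ratio, with scan day as a block, and with the slide as a random block, 0 were called. The same held for the alternatives chosen after seeing the data, namely each probe on its own and the 3 arrays furthest from their groups left out. Leaving out each array in turn gave 0 to 0 calls. Directions were less stable: of 36 uncalled differences at 162 µg, scaling between arrays turned the sign of 13, and the scanner's log ratio, slide and scan day as fixed blocks 11 each. The causes were not tested. Where the reference signal was not well above background, the ratio of a dim probe is limited in precision. No paired analysis was possible because every sample number in the labels occurs once, so that no number pairs mice of different groups, and the slide was the block used instead.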
